A study of Mus musculus with 12 samples.

Results

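Macrophages and monocytes were followed in mouse gastrocnemius, a calf muscle, through 10 marker genes of the 30488 gene symbols measured: Cd14, Csf1r, Adgre1, Cd68, Ctss, Lyz2, Mpeg1, C1qa, C1qb and C1qc. They are known markers, and the set was chosen by values as well: it was selected on earlier results in which such genes were higher in KO than in WT muscle of these same mice. The difference between KO and WT is therefore described here without a test. RNA was sequenced from 12 mice aged 32 weeks on a standard diet, 3 in each of 4 groups named after the allele of Gmppb, the gene of an enzyme that makes GDP-mannose for protein glycosylation. KO mice were heterozygous for a Cas9 deletion of 303 bp in exons 2 and 3. P32L mice were heterozygous for a substitution at base 95 that replaces proline 32 with leucine. R287Q mice were homozygous for a substitution at base 860 that replaces arginine 287 with glutamine. WT mice carried no engineered allele. The KO mice kept 1 intact copy of the gene, so they model a reduced dose and not a loss. The alleles are described as changes of the mouse genome, with no promoter or cell type restriction given in the labels. Sex, litter, strain and batch are not given, so p-values measure the spread between these mice only.

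The tissue holds far more myofibre than macrophage RNA. The labels give the cell type as muscle cells, while the RNA came from 100 mg of whole muscle per mouse, in which blood, vessel, connective tissue and immune cells are included. The 12 myofibre genes examined, such as Acta1, the actin of skeletal muscle fibres, summed to between 35599 and 52933 TPM per mouse. TPM, a relative abundance, corrects reads for the length of the transcript and gives every library nearly the same total (997591 to 998739 here), so levels of different genes can be set side by side. The 10 markers summed to between 49.5 and 247 TPM. In bulk tissue, fewer cells of a type and less RNA per cell cannot be told apart, and this holds for every value below. Sequencing depth is unknown because TPM keeps no counts.

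Macrophages are tissue phagocytes. Some are seeded before birth and renew themselves in the tissue, and others arise from blood monocytes. In skeletal muscle they sit between the fibres, clear dead material and, after injury, first remove debris and then accompany repair, and their numbers are known to be raised in dystrophic muscle. Most of them depend on CSF1, a growth factor read by the receptor that Csf1r encodes. Their genes are commonly under the transcription factor PU.1, encoded by Spi1, which binds DNA around a GGAA core.

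The 10 genes fall into 3 groups by role. The surface receptors were Cd14, which hands bacterial lipopolysaccharide to Toll-like receptor 4, Csf1r, and Adgre1, which encodes the adhesion receptor known as F4/80. The lysosomal and pore-forming group held Cd68, a glycoprotein of the lysosome membrane, Ctss, the protease cathepsin S, Lyz2, the lysozyme of myeloid cells, and Mpeg1, which encodes perforin-2, a protein that perforates engulfed microbes. The third group was C1qa, C1qb and C1qc, whose products assemble into C1q, the recognition part of the classical complement pathway, and are made largely by macrophages. C1qb, C1qc and C1qa lie beside each other on the minus strand of chromosome 4, within 18675 bp (mm10, 136880129 to 136898803).

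Promoter sequences of the markers are shown as a description, and their part in how the markers varied between mice was not tested. RefSeq start sites on build GRCm38.p6 gave a window of the 250 bases before the start for 6 of the 10 genes: Mpeg1, Ctss, Cd68, Lyz2, C1qb and C1qc. The PU.1 core was searched as GAGGAA on both strands, and capitals mark it. It stood in 4 of the 6 windows, those of Ctss, Cd68, C1qb and C1qc, and in 23.3% of all 32851 mouse windows of this length. The TATA box, searched as TATAAA on both strands, stood in 1 of 6, that of Ctss, against 12.4% of all windows. The AP-1 site, searched as TGAGTCA on both strands, stood in 1 of 6, that of Cd68, against 4.46% of all windows. None of the GAGGAA matches overlapped a match of the other motifs. The windows of Ctss (chr3:95526536-95526785, plus strand), Cd68 (chr11:69666171-69666420, minus strand) and C1qb (chr4:136886201-136886450, minus strand) are printed for their match on the coding strand, whose first base lay at -164, -225 and -30 counted from the start. That of Mpeg1 (chr19:12460520-12460769, plus strand) is printed for contrast, as it holds no match.
Ctss: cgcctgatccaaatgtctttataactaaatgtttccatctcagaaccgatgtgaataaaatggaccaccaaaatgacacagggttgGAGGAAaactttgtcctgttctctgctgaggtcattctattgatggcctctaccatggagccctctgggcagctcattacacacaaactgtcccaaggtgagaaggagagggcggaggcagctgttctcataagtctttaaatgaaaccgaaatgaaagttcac
Cd68: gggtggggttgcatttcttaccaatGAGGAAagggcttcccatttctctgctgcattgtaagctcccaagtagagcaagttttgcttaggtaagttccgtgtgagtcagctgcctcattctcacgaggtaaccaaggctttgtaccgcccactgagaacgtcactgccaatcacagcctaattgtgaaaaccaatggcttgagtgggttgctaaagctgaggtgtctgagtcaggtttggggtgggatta
C1qb: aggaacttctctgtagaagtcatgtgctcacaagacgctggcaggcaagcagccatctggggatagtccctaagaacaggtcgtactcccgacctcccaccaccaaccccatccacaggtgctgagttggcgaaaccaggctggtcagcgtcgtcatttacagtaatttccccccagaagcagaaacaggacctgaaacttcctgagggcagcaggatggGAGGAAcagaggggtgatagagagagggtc
Mpeg1: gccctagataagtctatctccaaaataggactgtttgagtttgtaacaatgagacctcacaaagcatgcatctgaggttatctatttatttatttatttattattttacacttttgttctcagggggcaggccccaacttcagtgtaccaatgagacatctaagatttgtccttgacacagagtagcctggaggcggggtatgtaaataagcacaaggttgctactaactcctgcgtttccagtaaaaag
The 4 windows overlap no gene annotated by GENCODE. A match is a run of letters and not a bound site.

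Libraries that stood apart for the markers come first, since they bear on every later value. The second KO mouse had the highest TPM of all 12 mice for 10 of the 10 markers, and the second WT mouse the lowest for 10 of 10. Among the 9152 genes that averaged 1 TPM or more, the second KO mouse was highest in 17.8%, the second WT mouse lowest in 10.8%, and both held at once in 3.26%. Other libraries were extreme in more of these genes. The first WT mouse was highest in 24.2%, and the first R287Q mouse was lowest in 21.6% and second lowest for 6 of the 10 markers. The markers summed to 145, 247 and 191 TPM in the KO mice, 139, 133 and 91.5 TPM in the P32L mice, 84.9, 139 and 144 TPM in the R287Q mice, and 158, 49.5 and 112 TPM in the WT mice. The sum thus differed 3.19-fold between the highest and lowest WT mouse and 1.70-fold within KO. Mitochondrial transcripts and their nuclear copies took 72.6% of the second KO library, the smallest share of the 12, and 76.4% of the second WT library. Rescaled to the remaining transcripts (TPM divided by their share of the library), the markers summed to 656, 903 and 783 in KO, 550, 612 and 384 in P32L, 401, 651 and 598.5 in R287Q, and 621, 210 and 527 in WT. On this scale also the second KO mouse was highest and the second WT mouse lowest. Each of the 3 KO mice was above each WT mouse on this scale only. In TPM the first KO mouse (145) was below the first WT mouse (158). The rescaling shifts all genes: 35.3% of 9108 genes were higher in mean in KO than in WT on it, against 52.1% in TPM. The share of all genes without overlap was not computed on this scale. The labels record nothing that sets the second WT mouse apart, and the part of any sampling difference was not tested.

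**Figure D1:**
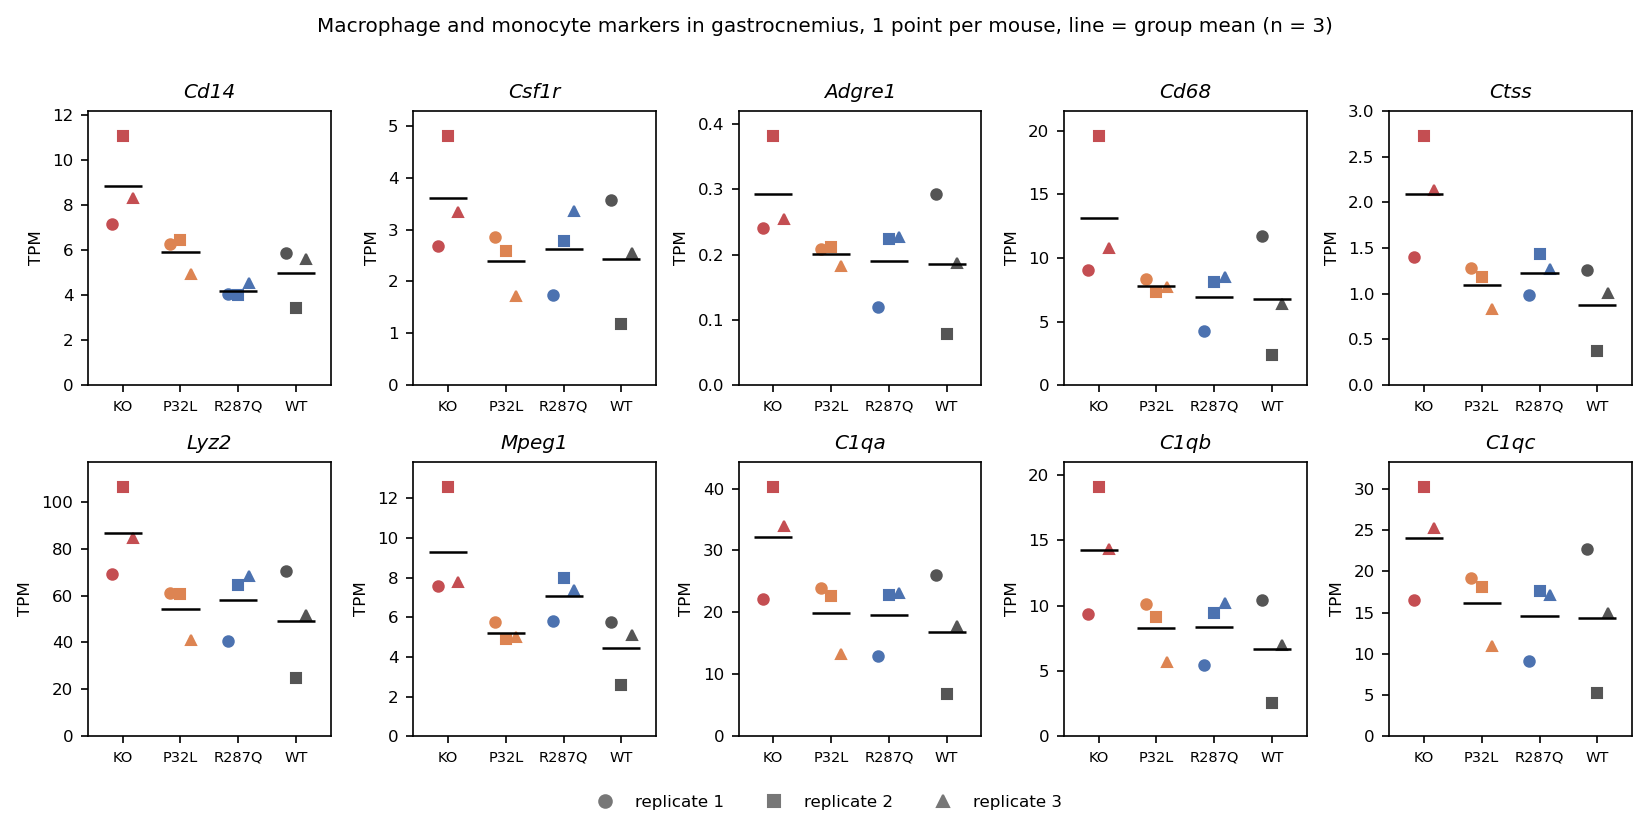
TPM of each of the 10 markers (vertical axes, each starting at 0) in the 3 mice of KO, P32L, R287Q and WT (horizontal axis); points are mice, with a shape for each replicate number, and short lines are group means. The second KO mouse is the highest point and the second WT mouse the lowest in all 10 panels.

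Among the surface receptors, Cd14 set the groups apart most clearly. It stood at 7.13, 11.1 and 8.29 TPM in KO mice, 6.26, 6.45 and 4.95 TPM in P32L mice, 4.06, 4.02 and 4.52 TPM in R287Q mice, and 5.88, 3.42 and 5.60 TPM in WT mice. Every KO mouse was above every mouse of the other lines, a pattern whose share of all genes was not computed. R287Q was a tight group whose mice lay below each P32L mouse. Its mean was 8.83 ± 2.02 TPM in KO, 5.89 ± 0.816 in P32L, 4.20 ± 0.281 in R287Q and 4.96 ± 1.35 in WT (SD, n = 3 each). Csf1r was at 2.68, 4.81 and 3.33 TPM in KO, 2.86, 2.60 and 1.72 in P32L, 1.74, 2.79 and 3.35 in R287Q, and 3.57, 1.18 and 2.55 in WT. All 4 groups overlapped for this receptor, and the first WT mouse was above 2 of the 3 KO mice. Adgre1, the classical surface marker of mouse macrophages, was the 1 marker whose mean fell short of 1 TPM and so was not tested. It was listed at 0.241, 0.382 and 0.255 TPM in KO, 0.208, 0.212 and 0.182 in P32L, 0.120, 0.225 and 0.227 in R287Q, and 0.293, 0.0781 and 0.187 in WT. No marker was listed at 0 in any mouse. Cd14 and Csf1r lie on chromosome 18, where Csf1r overlaps Mir6983 on its own strand and Hmgxb3 on the other, and the library kit does not keep strand. Adgre1 lies on the plus strand of chromosome 17 (57358691 to 57483527).

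In the lysosomal and pore-forming group, Lyz2 was the most abundant marker and made up 43.0% to 50.3% of the summed level in each mouse. It was at 69.1, 106 and 84.6 TPM in KO, 61.1, 60.7 and 41.1 in P32L, 40.6, 64.7 and 68.5 in R287Q, and 70.4, 24.9 and 51.8 in WT. All KO mice but the first were above all WT mice and the first was just below the highest of them. Its near-identical neighbour Lyz1 was listed at 1.16 to 9.40 TPM, and reads shared by the copies could have been assigned to either, so both levels are uncertain. Cd68 had the widest range, 8.32-fold over the 12 mice, with 9.06, 19.6 and 10.8 TPM in KO, 8.31, 7.34 and 7.72 in P32L, 4.24, 8.11 and 8.49 in R287Q, and 11.7, 2.35 and 6.34 in WT. The 3 P32L mice lay close together (7.79 ± 0.491 TPM), while the WT mice spanned most of the range (6.80 ± 4.69 TPM). Ctss was at 1.40, 2.73 and 2.13 TPM in KO, 1.28, 1.19 and 0.834 in P32L, 0.987, 1.44 and 1.27 in R287Q, and 1.26, 0.369 and 1.01 in WT. All KO mice were above all WT mice and all P32L mice, by a narrow margin for the first KO mouse. Ctss contains the pseudogene Hmgb1-ps5 on the same strand. Mpeg1 was at 7.57, 12.6 and 7.77 TPM in KO, 5.75, 4.89 and 5.02 in P32L, 5.83, 8.0 and 7.37 in R287Q, and 5.75, 2.56 and 5.08 in WT. For Mpeg1 alone of the 10, all 3 R287Q mice were above all 3 WT mice. On mm10, Cd68 lies on chromosome 11 (69664213 to 69666153, minus strand), Ctss on chromosome 3 (95526786 to 95556403, plus strand), Lyz2 on chromosome 10 (117277331 to 117282321, minus strand) and Mpeg1 on chromosome 19 (12460779 to 12465283, plus strand).

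The C1q chains moved closely together. C1qa was at 22.2, 40.3 and 34.0 TPM in KO, 23.9, 22.6 and 13.3 in P32L, 12.9, 22.8 and 23.1 in R287Q, and 26.0, 6.85 and 17.8 in WT. C1qb was at 9.34, 19.1 and 14.3 TPM in KO, 10.1, 9.13 and 5.65 in P32L, 5.41, 9.43 and 10.2 in R287Q, and 10.4, 2.54 and 6.95 in WT. C1qc was at 16.6, 30.3 and 25.2 TPM in KO, 19.3, 18.1 and 11 in P32L, 9.07, 17.6 and 17.2 in R287Q, and 22.8, 5.23 and 14.9 in WT. For each chain the first KO mouse was below the first WT mouse, so KO and WT overlapped for all 3. While the level of C1qa differed 5.88-fold between mice, the ratio of C1qa to C1qb stayed between 2.11 and 2.70 (median 2.38) and that of C1qa to C1qc between 1.14 and 1.42 (median 1.31). Within these ranges C1qa to C1qb was 2.49, 2.70 and 2.56 in WT and at most 2.48 in other mice. The ratio of C1qc to C1qb was 2.18, 2.06 and 2.15 in WT and at most 1.98 in other mice. For C1qa to C1qc the WT mice overlapped the others. These ratios were seen before they were picked out and carry no test.

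The order of the group means was KO, P32L, R287Q and WT for Adgre1, C1qa, C1qc and Cd68, and KO, R287Q, P32L and WT for C1qb, Ctss, Lyz2 and Mpeg1. Cd14 ran KO, P32L, WT and R287Q, and Csf1r ran KO, R287Q, WT and P32L. KO had the highest mean for 10 of 10 markers, which follows in part from their choice as higher in KO than in WT. The share of all genes with KO highest was not computed. Its mice did not overlap those of the next group for Cd14, Adgre1, Cd68 and Lyz2, for Lyz2 by 69.1 against 68.5 TPM. Of all genes, 4.98% were lower in P32L than in KO without overlap, and 7.97% lower in R287Q. Neighbours lower in the order overlapped, apart from R287Q and P32L for Mpeg1.

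For KO over WT, the contrast known when the genes were chosen, the ratio of mean TPM ran from 1.48 (Csf1r) to 2.38 (Ctss), with a median of 1.84. On the log2(TPM + 1) scale, which shrinks the differences of low genes, the differences were 0.73 (SE 0.18) for Cd14, 0.46 (SE 0.27) for Csf1r and 0.13 (SE 0.07) for Adgre1. They were 0.93 (SE 0.24) for Mpeg1, 0.73 (SE 0.19) for Ctss, 0.91 (SE 0.34) for Lyz2 and 0.99 (SE 0.42) for Cd68. The C1q chains differed by 1.03 (SE 0.42) for C1qa, 1.1 (SE 0.40) for C1qb and 0.87 (SE 0.44) for C1qc. All 10 markers were higher in KO, as were 52.1% of all 9152 genes, and the median over the 10 was 0.89, beside 0.01 over all genes. KO and WT mice did not overlap for 3 of the 10, Cd14, Mpeg1 and Ctss, and 4.39% of all genes were higher in KO with no overlap. These values depended on the second WT mouse: without it the median was 0.50, the C1q chains stood at 0.52, 0.62 and 0.32, and Csf1r at 0.17. Of all genes 48.7% were then higher in KO. Without the second WT and the second KO mouse the median was 0.34, with 9 of 10 markers still higher in KO and Csf1r at -0.01. Of all genes 38.9% were higher in KO without both.

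P32L and R287Q were each set against the same WT mice, so these comparisons share them with KO over WT. The markers were chosen as lower in those WT mice than in KO, so higher values in the other lines were favoured in advance. In P32L, 10 of 10 markers had a higher mean log2 level than WT, where 55.5% of all genes did, with a median difference of 0.24 (range 0.02 to 0.41) beside 0.01 over all genes. No marker passed in P32L: limma called 0 of the 9 tested at an adjusted p under 0.05, with 0 below an unadjusted 0.05, beside 0.0437% of all genes called. The largest difference, that of C1qb, was 0.41 with a 95% interval of -0.48 to 1.29 (limma adjusted p = 0.999), so a change of more than 2-fold is within the interval. The intervals of all 10 spanned 0, and the P32L and WT mice overlapped for all 10, beside 5.56% of all genes that were higher in P32L with no overlap. Without the second WT mouse 1 of 10 markers, Cd14, was higher in P32L, beside 50.8% of all genes, and the median was -0.10. Without the first WT mouse the median was 0.49.

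In R287Q, 9 of 10 markers had a higher mean log2 level than WT, where 36.8% of all genes did, with a median of 0.23 beside -0.04 over all genes. Again limma called 0 of 9, beside 0.0% of all genes, and 1 marker, Mpeg1, was below an unadjusted 0.05. Mpeg1 averaged 7.07 ± 1.12 TPM in R287Q and 4.47 ± 1.68 TPM in WT, a log2 difference of 0.61 (SE 0.24, 95% interval 0.08 to 1.13, limma adjusted p = 0.833). It was the 1 marker of 10 whose groups did not overlap, against 3.02% of all genes that were higher in R287Q in this way. Cd14 was lower in mean, by a log2 difference of -0.17 (95% interval -0.57 to 0.23, limma adjusted p = 0.981). Without the second WT mouse 2 of 10 markers, Mpeg1 (0.32) and Ctss (0.06), were higher in R287Q, beside 32.6% of all genes. The median was then -0.13. It was 0.61 without the first WT mouse, and 0.46, 0.14 and 0.11 without the first, the second or the third R287Q mouse.

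**Figure D2:**
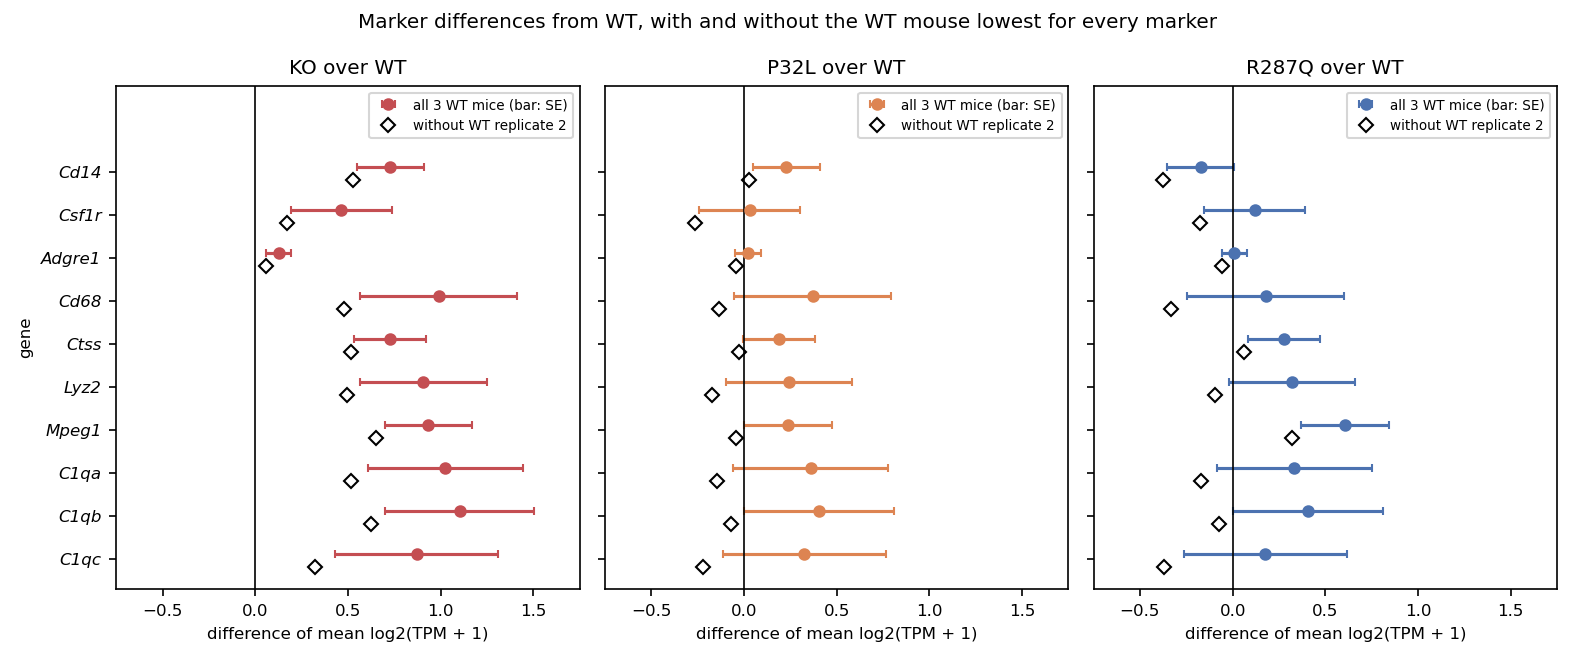
Difference in mean log2(TPM + 1) between each Gmppb line and WT for the 10 markers, with all 3 WT mice and without the second WT mouse; filled points use all 3, with bars of 1 SE from limma, and open diamonds leave that mouse out. Leaving out that mouse, the lowest for every marker, necessarily moves every marker to the left in all 3 lines. The medians become 0.50 in KO, -0.10 in P32L and -0.13 in R287Q.

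Setting the missense lines against KO avoids the WT mice but shares the KO mice with the contrast that was in view. The markers were chosen as higher in those KO mice, so lower values in the missense lines were favoured in advance. The counts, intervals and p-values of both comparisons with KO are a description and cannot be read as support for a difference. In P32L, 10 of 10 markers were lower in mean than in KO, where 51.4% of all genes were higher, with a median log2 difference of -0.58 beside 0.00 over all genes. Limma called 0 of 9 here, with 3 below an unadjusted 0.05, beside 0.0219% of all genes called. The lowest adjusted p was that of Mpeg1, which averaged 5.22 ± 0.467 TPM in P32L and 9.31 ± 2.84 TPM in KO, a log2 difference of -0.70 (SE 0.24, limma adjusted p = 0.489). For 6 of the 10 markers, Cd14, Mpeg1, Ctss, Cd68, Adgre1 and Lyz2, the P32L mice were all below the KO mice, while 4.98% of all genes were lower in P32L in this way. Without the second KO mouse the median was -0.38.

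In R287Q, too, 10 of 10 markers were lower in mean than in KO, where 34.6% of all genes were higher, with a median of -0.64 beside -0.05 over all genes. Limma called 0 of 9, with 2 below an unadjusted 0.05, beside 0.0437% of all genes called. Cd14 came nearest, with a log2 difference of -0.90 (SE 0.18, 95% interval -1.30 to -0.50, limma adjusted p = 0.156). The mice did not overlap for 4 of 10 markers, Cd14, Cd68, Adgre1 and Lyz2, and 7.97% of all genes were lower in R287Q in this way. Without the first R287Q mouse the median was -0.39, without the second KO mouse -0.45, and the Cd14 difference without that KO mouse was -0.74.

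R287Q over P32L uses neither the KO nor the WT mice. Of the 10 markers, 4 were higher and 6 lower in R287Q, where 32.7% of all genes were higher, with a median log2 difference of -0.01 beside -0.05 over all genes. These counts moved with single mice and with the scaling, and so did the share of all genes that were higher. Without the first R287Q mouse 9 markers were higher (median 0.20), beside 45.9% of all genes. Without the third P32L mouse 1 was higher (-0.15), beside 26.7%, and without the third R287Q mouse 2 (-0.10), beside 24.8%. Without the first or the second P32L mouse 6 were higher, beside 45.1% and 29.6%. With transcripts rescaled without mitochondrial genes, by median-of-ratios or by quantile normalization, 6 were higher, beside 56.9%, 50.3% and 48.4%. Limma called 0 of 9, with 1 below an unadjusted 0.05, beside 0.0% of all genes called. Cd14 averaged 4.20 ± 0.281 TPM in R287Q and 5.89 ± 0.816 TPM in P32L, a log2 difference of -0.40 (SE 0.18, limma adjusted p = 0.743). Mpeg1 stood the other way, at 7.07 ± 1.12 TPM in R287Q and 5.22 ± 0.467 TPM in P32L, a log2 difference of 0.37 (SE 0.24, limma adjusted p = 0.831). The mice of the lines did not overlap for either gene. Genes lower in R287Q without overlap made up 10.2% of all, and genes higher in this way 2.31%.

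These opposite shifts of Cd14 and Mpeg1 were described further against the other 9 markers of the same mouse, as the log2 deviation of the gene less the mean deviation of the others. Cd14 stood at -0.31 in R287Q (range -0.54 to 0.04), 0.06 in KO, 0.12 in P32L and 0.13 in WT (range -0.21 to 0.46). Mpeg1 stood at 0.28 in R287Q (range 0.13 to 0.41), 0.02 in KO, -0.15 in P32L and -0.15 in WT (range -0.34 to 0.01). Relative to the other markers, Mpeg1 was above 0 in 3 of 3 R287Q mice and Cd14 below 0 in 2 of 3, with overlap between R287Q and WT for Cd14 and none for Mpeg1. These were picked out after their values were seen and carry no test.

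**Figure D3:**
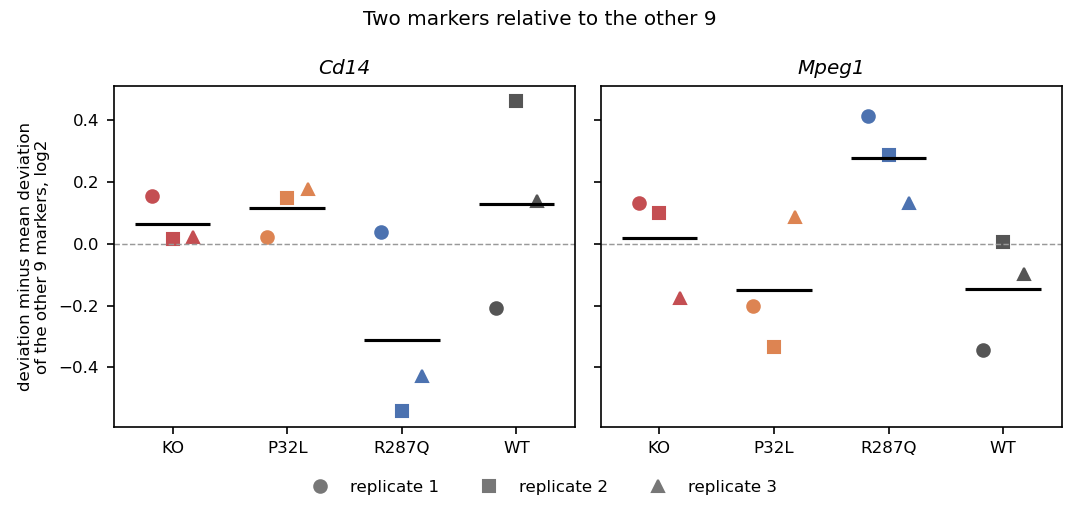
Level of Cd14 and Mpeg1 relative to the other 9 markers of the same mouse (log2, vertical axis) in KO, P32L, R287Q and WT mice, with points for mice and lines for group means. In R287Q the means are -0.31 for Cd14 and 0.28 for Mpeg1.

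How closely the markers followed each other was described by Pearson's r over the 12 mice after subtracting each group's mean. Over the 45 pairs r ran from 0.827 to 0.998, with a median of 0.927. Against the mean of the other 9, r was lowest for Cd14 (0.90) and Mpeg1 (0.91) and highest for C1qb (0.99). Without the second KO and second WT mouse r was 0.985 for C1qa, 0.991 for C1qb, 0.993 for C1qc, 0.986 for Lyz2 and 0.974 for Csf1r. It was 0.89 for Ctss, 0.88 for Adgre1, 0.80 for Cd68, 0.79 for Mpeg1 and 0.70 for Cd14. By Spearman's rho without those mice, the markers ran from 0.455 (Cd14) to 0.939 (Lyz2), and C1qc stood at 0.770. The points of one mouse share a library and its composition, and in these data the median r of 7980 other genes with the same marker mean was 0.434, with 9.59% above 0.8.

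The 10 genes most like the marker mean, by r after subtracting group means over 12 mice, were Trim11 (0.994), Folr2 (0.993), Ocrl (0.993), Fn1 (0.990), Serinc3 (0.989), Cfp (0.982), Naaa (0.982), Tgfbr2 (0.981), Cmtm3 (0.981) and C1s1 (0.981). Folr2 encodes a folate receptor found on resident macrophages, Cfp encodes properdin of the alternative complement pathway, C1s1 a protease that works with C1q, and Fn1 fibronectin. All 10 were lowest in the second WT mouse, and 8 of them highest in the second KO mouse. Trim11 and Ocrl were highest in the first WT mouse. The shared extremes follow in part from the choice, as the marker mean had its extremes in the second KO and second WT mouse. Folr2 ran from 0.462 to 3.77 TPM and Cfp from 1.18 to 8.13 TPM, while Trim11 ran only from 1.51 to 2.24 TPM. Without the second KO and second WT mouse their r ran from 0.939 to 0.989, over mice that were also used to pick them. The 5 genes with the lowest r were Tceal7 (-0.956), Gp1ba (-0.946), Zfp518a (-0.874), Trdn (-0.849), which encodes triadin of the muscle calcium release complex, and Zfp788 (-0.839).

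Other lists of macrophage, pathway and cell type genes were described beside the markers by their counts and medians, leaving out the 10 markers themselves. The list values without the second WT mouse were added after the values were seen. Leaving it out necessarily lowers the differences from WT of any gene for which it was the lowest WT mouse. Without the second WT mouse, 48.7% of all genes were higher in KO than in WT, 50.8% in P32L and 32.6% in R287Q. These shares stand beside every list count given without that mouse. The lists were not computed without the other WT mice. Of 30 other macrophage markers, 10 had a mean of at least 1 TPM. Of these, 10 were higher in KO than WT (median log2 difference 0.55), 10 in P32L (0.27) and 9 in R287Q (0.24), and limma called 0 of 10 in each, beside the shares of all genes given above and 0.0109% for KO over WT. Without the second WT mouse 9 (0.32), 6 (0.01) and 5 (0.00) of the 10 were higher. Tyrobp, a signalling adaptor of myeloid receptors, was at 3.97, 5.97 and 4.41 TPM in KO, 3.43, 4.30 and 2.08 in P32L, 2.24, 3.16 and 4.11 in R287Q, and 4.02, 1.12 and 3.02 in WT, and so had its extremes in the same mice as the markers. Cd163, the scavenger receptor for hemoglobin, did too, with 5.61 TPM in the second KO mouse and 1.13 TPM in the second WT mouse. Maf was nearly level, at 19.6 to 32.1 TPM over all mice. The remaining 20 stayed below 1 TPM in mean, among them Spi1 (0.0983 to 0.400 TPM) and Ptprc, the leukocyte antigen CD45 (0.0658 to 0.336 TPM), named after their values were seen.

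Resident macrophage markers followed the 10 genes most closely, with an r of 0.993 between the list's mean deviation and that of the markers. Of 10 tested, 10 were higher in KO (median 0.56), 10 in P32L (0.18) and 5 in R287Q (0.01), and without the second WT mouse 9 (0.26), 4 (-0.17) and 0 (-0.17). Pf4, a chemokine of platelets and resident macrophages, was at 38.2, 56.9 and 42.6 TPM in KO, 33.6, 34.4 and 20.9 in P32L, 18.4, 27.2 and 32.3 in R287Q, and 38.8, 14.8 and 30.8 in WT. Cd209f, a lectin receptor gene, was at 10.7, 20.8 and 13.7 TPM in KO, 11.2, 10.3 and 8.25 in P32L, 5.31, 8.02 and 5.48 in R287Q, and 14.1, 3.06 and 13.9 in WT. The other 2 most abundant genes of the list, Selenop, which encodes a selenium carrier protein, and Cbr2, a carbonyl reductase, had narrower ranges (40.2 to 78.3 TPM and 27.7 to 57.8 TPM). The second WT mouse was lowest for Selenop and not for Cbr2. Limma called 0 of these 10 in each line. The list of damage-associated macrophage genes followed the markers least of the macrophage lists, with an r of 0.271 for its mean deviation. That mean covers only the genes of at least 1 TPM in mean and leaves out others such as Gpnmb and Trem2. Its genes differed: Apoe was highest in the second KO mouse (253 TPM) and lowest in the second WT mouse (71.8 TPM), as the markers were. Spp1 was highest in the third KO mouse (8.03 TPM) and lowest in the first WT mouse (0.901 TPM). Of 7 tested, 6 were higher in KO (median 0.14), 6 in P32L (0.05) and 5 in R287Q (0.20). Without the second WT mouse these were 5 (0.15), 4 (0.01) and 5 (0.08). That mouse ranked 10 of 12 for this list and the second KO mouse 4. Limma called 0 of the 7.

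Monocyte genes gave a less even picture. Of 4 tested, 4 were higher in KO (median 0.52), 2 in P32L (0.04) and 2 in R287Q (0.04), and without the second WT mouse 3 (0.41), 1 (-0.22) and 1 (-0.09). Ccr2, the chemokine receptor of inflammatory monocytes, was at 2.27, 2.86 and 2.31 TPM in KO, 1.43, 1.41 and 0.846 in P32L, 0.926, 1.68 and 2.02 in R287Q, and 1.88, 0.785 and 1.40 in WT. Every KO mouse was above every other mouse for Ccr2, with a log2 difference of 0.59 over WT (SE 0.20, limma adjusted p = 0.620). The share of all genes with this pattern was not computed. Nr4a1, which is also an immediate-early gene, was highest in the third P32L mouse, at 50.6 TPM. Ace and S100a4, which other muscle cell types also express, completed the list.

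Genes that act with the markers were described next. The markers were chosen as higher in KO than in WT, so their greater uniformity was favoured in advance. Of 6 other genes of the CSF1 receptor pathway, 5 were higher in KO (median 0.45), 5 in P32L (0.21) and 6 in R287Q (0.18). With the second WT mouse left out, 5 (0.22), 2 (-0.05) and 3 (-0.00) were higher. Csf1, the ligand, was at 2.89, 3.77 and 3.27 TPM in KO, 3.32, 3.46 and 2.15 in P32L, 2.23, 2.60 and 3.25 in R287Q, and 3.20, 1.91 and 2.81 in WT. Cebpb, a transcription factor of myeloid cells and adipocytes, was at 12.2, 20.4 and 22.5 TPM in KO, 17.6, 13.6 and 13.1 in P32L, 10.9, 11.1 and 13 in R287Q, and 10.1, 8.05 and 6.04 in WT. All mice of the 3 lines were above all WT mice for Cebpb, and none of its differences passed (limma adjusted p = 0.366 for KO, 0.332 for P32L and 0.897 for R287Q over WT). Of all genes, 4.39% were higher without overlap in KO, 5.56% in P32L and 3.02% in R287Q. The share for all 3 lines at once was not computed.

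Of 9 other genes of the CD14 and Toll-like receptor 4 complex, 5 were higher in KO (median 0.16), 7 in P32L (0.06) and 6 in R287Q (0.05), and without the second WT mouse 5 (0.06), 5 (0.00) and 4 (-0.02). Nfkbia, the inhibitor of NF-kappa-B, ran from 14.2 to 22.4 TPM and Irak1, a kinase below the receptor, from 9.69 to 12.1 TPM over all 12 mice. Of 16 other complement genes, 13 were higher in KO (median 0.28), 11 in P32L (0.05) and 9 in R287Q (0.03). Without the second WT mouse these were 12 (0.09), 5 (-0.14) and 4 (-0.12), beside 48.7%, 50.8% and 32.6% of all genes. C3, the central component, was at 20.9, 44.3 and 24.1 TPM in KO, 27.8, 22.7 and 21.6 in P32L, 15.7, 22.7 and 20.0 in R287Q, and 28.8, 8.10 and 25.6 in WT, with its extremes again in the second KO and second WT mouse. Serping1, the inhibitor of C1, ran from 21.5 to 43.4 TPM. Cfd, factor D, which adipocytes secrete, ran from 62.1 to 764 TPM with another order of mice. General lysosome genes, which fibres also express, were nearly level: of 28, 22 were higher in KO (median 0.11), 19 in P32L (0.02) and 16 in R287Q (0.01), and Lamp1 ran from 60.5 to 82.4 TPM. Leaving out the second WT mouse gave 18 (0.05), 10 (-0.04) and 6 (-0.06) of the 28, beside the same shares of all genes. Limma called 0 genes of these pathway lists in any line.

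Antigen presentation genes also had their extremes in the same mice. Of 6 tested, 6 were higher in KO (median 0.77), 6 in P32L (0.52) and 5 in R287Q (0.28), and without the second WT mouse 6 (0.45), 5 (0.21) and 2 (-0.01). Cd74, the invariant chain of class II molecules, was at 27.5, 51.1 and 37.1 TPM in KO, 32.1, 34.7 and 25.5 in P32L, 22.4, 25.1 and 30.8 in R287Q, and 31.1, 12.3 and 22.0 in WT. Of 11 chemokine genes, 9 were higher in KO (median 0.43), 8 in P32L (0.31) and 8 in R287Q (0.17), and without the second WT mouse 9 (0.19), 6 (0.13) and 4 (-0.07). Ccl6, a chemokine of myeloid cells, was at 14.5, 22.3 and 17.1 TPM in KO, 13.7, 12.6 and 6.39 in P32L, 5.54, 11.7 and 11.2 in R287Q, and 10.1, 2.29 and 8.66 in WT. For Ccl6 the KO mice were above every other mouse, with a log2 difference of 1.40 over WT (SE 0.44, limma adjusted p = 0.582). How many of all genes had this pattern was not computed. Limma called 0 genes of either list in any line.

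Genes of other cell types moved with the markers to different degrees. The r of a list's mean deviation with that of the markers was 0.930 for fibro-adipogenic progenitors, 0.806 for eosinophils and mast cells, 0.671 for erythroid genes, 0.224 for myofibres, 0.222 for immediate-early genes, -0.166 for neutrophils and -0.580 for Schwann cells. All 13 fibro-adipogenic genes were higher in KO than WT (median 0.35), and 11 of 13 without the second WT mouse (median 0.18). Col1a1, a fibrillar collagen of that list, was at 35.0, 52.3 and 45.5 TPM in KO against 52.8, 31.1 and 24.2 TPM in WT, so the first WT mouse was above every KO mouse. The summed level of that list was 351 to 489 TPM in KO, 295 to 396 TPM in P32L, 276 to 451 TPM in R287Q and 250.3 to 458 TPM in WT. The erythroid genes, mostly globins, summed to 1797 to 2889 TPM in KO, 1505 to 1995 TPM in P32L, 1386 to 2125 TPM in R287Q and 1004 to 2535 TPM in WT, with the lowest sum in the second WT mouse. Neutrophil genes summed to 2.64 to 10.9 TPM in KO, 3.46 to 20.4 TPM in P32L, 3.58 to 61.3 TPM in R287Q and 3.10 to 6.75 TPM in WT. The 15 tested immediate-early genes were higher in KO in 15 of 15 (median 0.97) and in P32L in 15 of 15 (0.91), and in R287Q in 6 of 15 (-0.06), and without the second WT mouse in 14 (0.88), 14 (0.98) and 6 (-0.17). The part of these cells and states in the marker values was not tested.

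**Figure D4:**
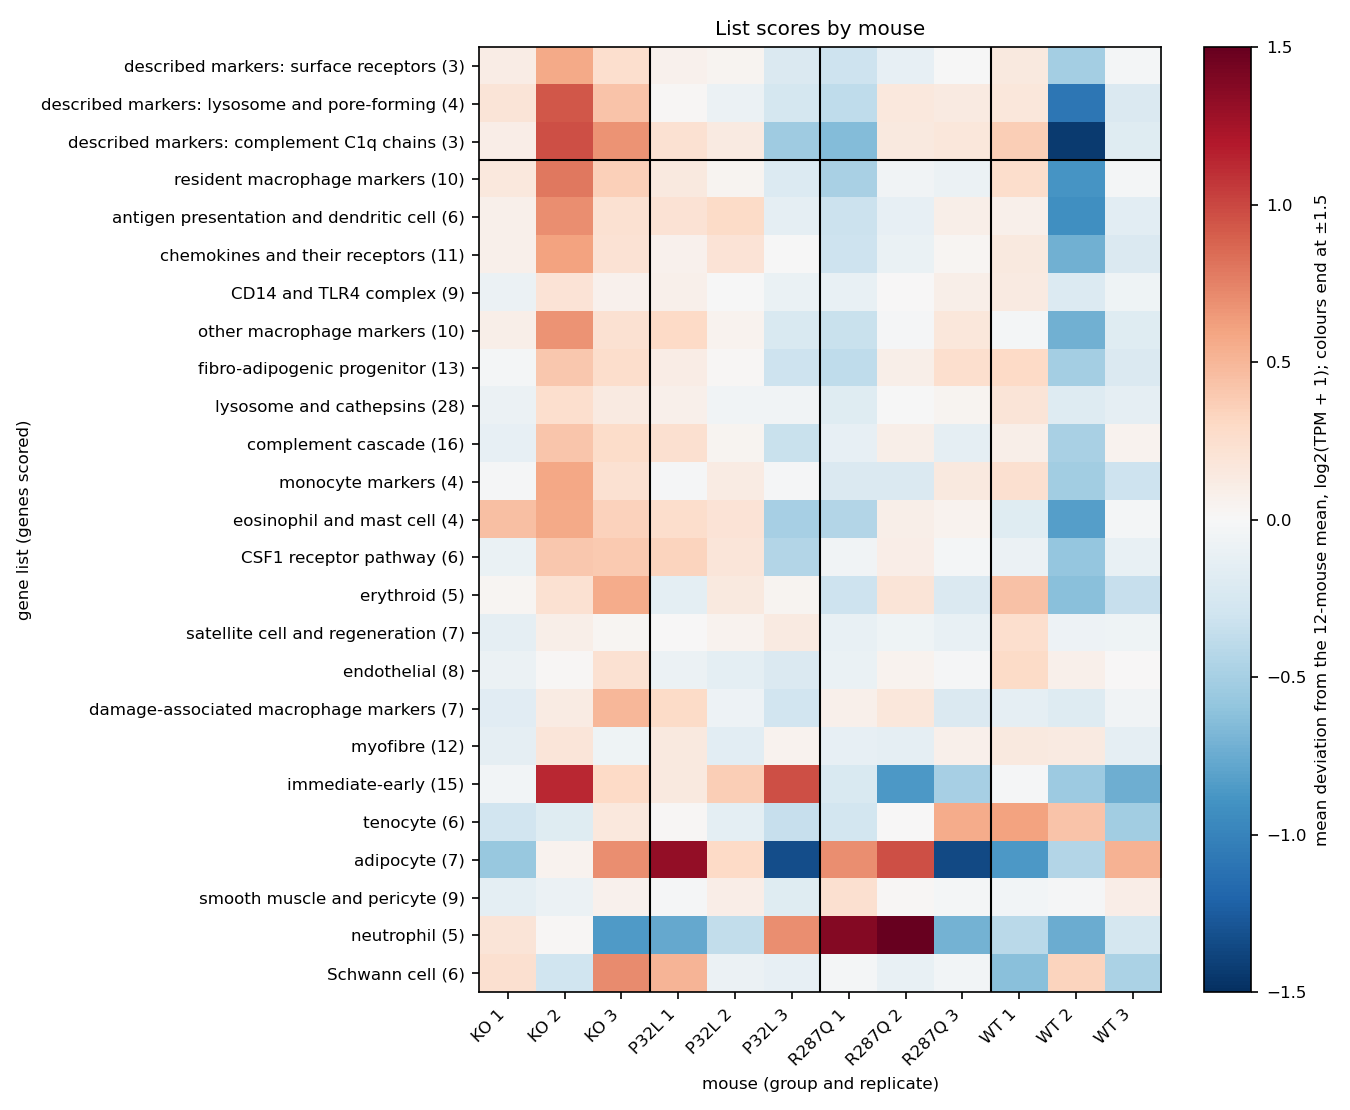
Mean log2 deviation of each gene list from its mean over the 12 mice (colour; rows are lists, with the number of genes scored, and columns are the mice of KO, P32L, R287Q and WT). The rows of the described markers, resident macrophages and antigen presentation are all lowest in the second WT mouse and highest in the second KO mouse.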

How the data were processed

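RNA from 100 mg of gastrocnemius per mouse was extracted with Trizol, and 2 µg entered an NEBNext Ultra library, per the labels' protocols. FastQC, HISAT2, StringTie and DESeq2 with build mm10 are named per the submitters' processing notes, without versions. The authors deposited 1 table of log2 values, which sum to 997591 to 998739 per library once the log and the 1 are removed and so were read as log2(TPM + 1). The test had been written for TPM with this pseudocount. Depth is unknown.

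The 9152 genes that averaged 1 TPM or more were tested with limma 3.58.1 (R 4.3.3, intensity trend) on 4 group means over 12 mice, in 6 comparisons. Adjusted p is Benjamini-Hochberg over all 9152 genes, two-sided, and intervals are 95%. The procedure was tested on simulated data. Further values were computed with Python 3.11.15. Positions came from GENCODE M21 by symbol (96.2% matched) and promoters taken from RefSeq GRCm38.p6. The markers, lists, tests and alternatives were chosen with earlier results of these data known. Named genes were the 10 markers, the 10 most and 5 least like them, and up to 4 of each list by mean TPM, unless said otherwise. The values of 1 gene named by this rule are not reported here. Lists that moved little with the markers are given by their counts or levels only or left out. The alternatives changed the pseudocount, filter, trend, variance, scaling, samples and a replicate block.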

Additional observations from a re-analysis of the deposited data

How the results depend on the processing

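Over the settings tried, limma called 0 markers in each of the 5 comparisons tested, and the lowest adjusted p of a marker was 0.0862. Leaving out each mouse in turn moved the median log2 difference between 0.50 and 1.17 for KO over WT, -0.10 and 0.49 for P32L over WT (1 to 10 markers higher), -0.13 and 0.61 for R287Q over WT (2 to 9 higher), -0.80 and -0.38 for P32L over KO, -0.83 and -0.39 for R287Q over KO, and -0.15 (without the third P32L mouse) and 0.20 (without the first R287Q mouse) for R287Q over P32L (1 to 9 higher). The share of all genes that were higher moved too. For R287Q over P32L it was 26.7% without the third P32L mouse and 45.9% without the first R287Q mouse. Without the second WT mouse it was 50.8% for P32L over WT and 32.6% for R287Q over WT. The values for P32L and R287Q below WT arose without the second WT mouse. Without both it and the second KO mouse, a setting chosen after seeing the data, the median was 0.34 for KO, -0.10 for P32L (1 higher) and -0.13 for R287Q (2 higher). In this setting 38.9%, 50.9% and 32.7% of all genes were higher. The median for R287Q over P32L, -0.01 as reported, was 0.072 without mitochondrial genes, 0.045 with median-of-ratios scaling and 0.045 with quantile normalization; these rescale all genes. Numbers did not pair mice: same-numbered mice of different groups had a median correlation of -0.343 between deviations from their group means, over 18 pairs, and 1 pair was over 0.1. With a replicate block the medians were unchanged in this balanced design (0.89, 0.24, 0.23, -0.58, -0.64 and -0.01), 0 markers were called, and the genes called numbered 0 for each line over WT, 2 for P32L over KO and 1 for R287Q over KO. Depth is unknown, so its limit on each marker cannot be given.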
